A study of Rattus norvegicus with 24 samples.

Results

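The difference of the methamphetamine (MA) effect between the striatum and the whisker follicle was measured as an interaction: MA minus saline (SA) in the follicle, minus MA minus SA in the striatum. Values were FPKM, counts of sequenced fragments scaled by the length of the transcript and the size of the library, taken as log2(FPKM + 1). The interaction was computed for the 8212 of 17711 rows of the expression table whose mean was at least 1 FPKM over the 12 striatum libraries and also over the 12 whisker follicle libraries. A difference below is MA minus SA on this log2 scale unless another quantity is named. A positive interaction means that MA minus SA was higher in the follicle than in the striatum, whatever the direction in each tissue. An opposite response means that the 2 differences had unlike signs, and a shared response that they had the same sign.

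Male Sprague-Dawley rats pressed a lever for intravenous infusions in daily sessions, and the infusion was either MA or SA alone. RNA was taken from the striatum and from the whisker follicles, which gave 4 groups of 6 libraries each: striatum SA, striatum MA, whisker SA and whisker MA. All rats, the SA rats included, had first been trained with food pellets and had undergone surgery. Libraries are called by their group and by the index 0 to 5 of their column, which the labels do not tie to a rat number.

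The striatum is the forebrain region where dopamine released by MA acts on medium spiny neurons, and drug exposure there is known to induce activity-regulated transcription factors. The whisker follicle is a skin organ of keratinocytes, dermal papilla, vessels and nerve endings that renews a hair shaft in cycles. Both derive in part from ectoderm, and circulating hormones such as glucocorticoids reach both, so the question of this comparison is which transcripts respond to MA alike in the 2 tissues and which respond in opposite directions.

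The tissues carried their defining markers. Of 20 neuron markers, 19 averaged at least 1 FPKM in both striatum groups, against 4 in whisker SA and 2 in whisker MA, and all 12 epidermal and all 15 hair shaft and matrix markers in the table reached 1 FPKM in the follicle. Library 0 of whisker SA stood apart: its mean correlation with its own group was 0.900, against 0.952 to 0.983 for the other 23 libraries, and with the whisker MA libraries it was 0.956. It lay beyond the other 5 whisker SA libraries in 73.4% of the rows. It was kept, and values without it are given for the main results. Library 5 of whisker SA held Mbp, a myelin protein, at 49.9 FPKM, against at most 6.00 FPKM in the other follicle libraries, and summed erythrocyte markers ran to 2219 FPKM in striatum MA, against at most 353 FPKM in striatum SA.

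Few rows passed the test of the interaction (limma, Benjamini-Hochberg adjusted p under 0.05 and a difference of at least 1.5-fold). There were 2 such rows, or 0.0244% of those tested: Pkp2, lower in the follicle than in the striatum, and H1f0, higher (0.0122% of rows in each direction). By the adjusted p alone there were 3 (0.0365%), with Gpn3. At an unadjusted p under 0.05, 1026 rows (12.5%) differed between the tissues, of which 396 (4.82%) were higher and 630 (7.67%) lower in the follicle. By sign alone, 2357 rows (28.7%) were up in the striatum and down in the follicle, 2035 (24.8%) were down and up, 1859 (22.6%) were up in both and 1961 (23.9%) were down in both. Across these rows, which are not independent of each other, Pearson's correlation between the 2 differences was -0.055. When the larger of the 2 within-tissue p-values was used, no row passed after adjustment (smallest adjusted p = 1.00 in limma), and 40 opposite rows (0.487%) and 49 shared rows (0.597%) had it under 0.05 unadjusted.

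**Figure D1:**
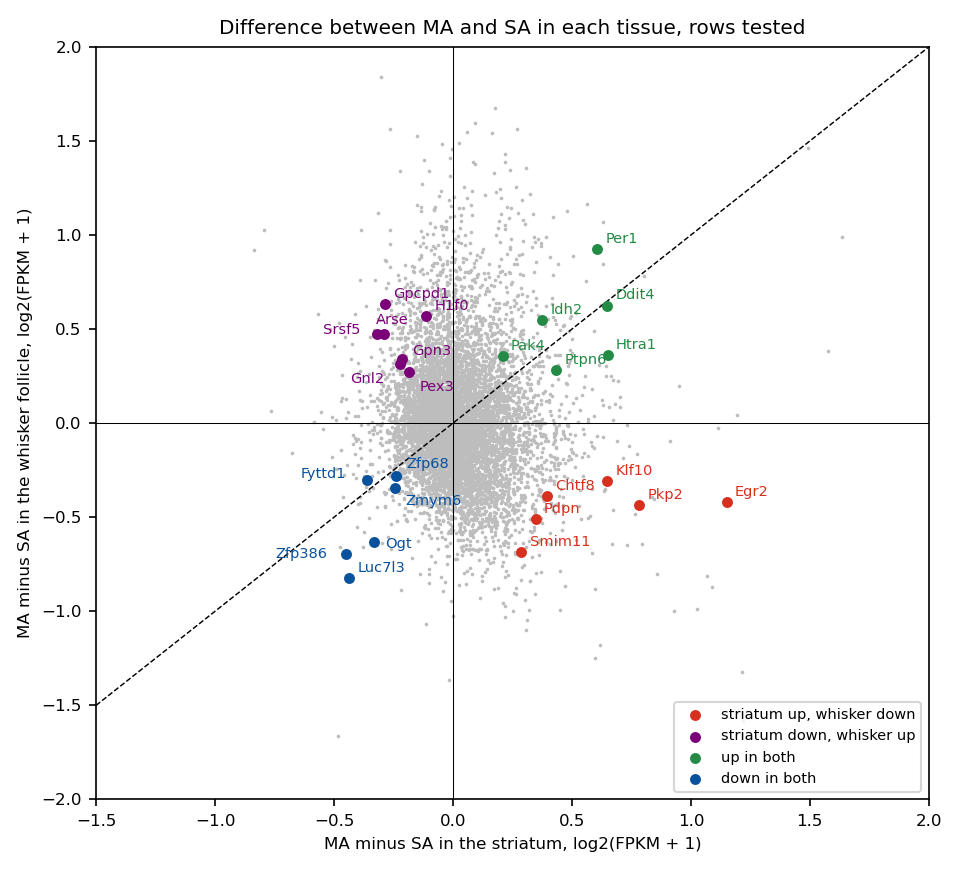
MA minus SA of the striatum (x axis) and of the follicle (y axis), each in log2(FPKM + 1), for 8209 of the 8212 rows tested (grey points; 3 rows lie outside the axes); the dashed line marks equal differences, and coloured points are the genes named for opposite or shared responses. Grey points gather at 0 and spread more along the follicle axis than along the striatum axis, and Pkp2 and Egr2 lie farthest to the lower right of the coloured points.

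Pkp2 encodes plakophilin 2, a plaque protein of desmosomes, the junctions that hold epithelial and heart muscle cells together. In the striatum it ran over 0.998 to 1.23 FPKM (median 1.12) in SA and 1.73 to 2.99 FPKM (median 2.80) in MA. In the follicle the values were 2.91 to 3.99 FPKM (median 3.28) in SA and 1.94 to 2.57 FPKM (median 2.15) in MA. The groups did not overlap in either tissue, and the MA libraries lay above the SA libraries in the striatum and below them in the follicle. MA minus SA was 0.78 in the striatum and -0.44 in the follicle, an interaction of -1.22 (SE 0.14, adjusted p = 3.38e-05 in limma). Its call was kept in each of the 24 fits that left out 1 library, with an adjusted p of at most 0.000145. Without library 0 of whisker SA the interaction was -1.20.

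H1f0 encodes the linker histone H1.0, which accumulates in differentiated cells. Its level in the follicle was 241 to 312 FPKM (median 286) in SA and 362 to 505 FPKM (median 406) in MA, and all 6 MA libraries lay above all 6 SA libraries. The striatum groups overlapped, with 44.8 to 52.9 FPKM (median 49.8) in SA and 41.9 to 52.8 FPKM (median 44.8) in MA. MA minus SA was -0.11 in the striatum and 0.57 in the follicle, so most of the interaction of 0.68 (SE 0.13, adjusted p = 0.0404) lay on the follicle side. The adjusted p was under 0.05 in 5 of the 24 fits without 1 library, reached 0.120 without library 0 of striatum MA, and was 0.00577 without library 0 of whisker SA. With quantile normalization within each tissue it was 0.128.

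Gpn3, a small GTPase that takes part in the nuclear import of RNA polymerase II, had the second smallest p of the interaction but stayed under the 1.5-fold limit. Its values in the striatum were 22.5 to 26.8 FPKM (median 24.3) in SA and 20.1 to 23.1 FPKM (median 20.7) in MA, where only MA library 1, at 23.1 FPKM, reached into the SA range. In the follicle they were 12.4 to 15.97 FPKM (median 14.0) in SA and 16.5 to 19.4 FPKM (median 18.3) in MA, without overlap. The interaction was 0.56 (SE 0.10, adjusted p = 0.0404), from -0.21 in the striatum and 0.34 in the follicle. The adjusted p was not under 0.05 in 16 of the 24 fits without 1 library, where it reached 0.112, and it was 0.00591 without library 0 of whisker SA.

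Opposite responses with the striatum up and the follicle down made up 28 of the 40 opposite rows. After Pkp2, the smallest such p belonged to Chtf8, a subunit of the clamp loader that supports sister chromatid cohesion. Chtf8 stood at 24.7 to 34.9 FPKM (median 32.2) in striatum SA and 32.0 to 48.1 FPKM (median 40.7) in striatum MA, against 34.5 to 57.5 FPKM (median 42.3) in whisker SA and 28.7 to 35.9 FPKM (median 32.9) in whisker MA. The differences of 0.39 in the striatum and -0.39 in the follicle were of almost equal size, and the groups overlapped in both tissues, in the follicle through SA library 0 alone. Its interaction of -0.78 (SE 0.16) had an adjusted p of 0.0791 in limma, and without library 0 it was -0.85 with an adjusted p of 0.00577.

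Egr2 and Klf10 are zinc finger transcription factors, the first an immediate early gene and the second induced by transforming growth factor beta. Egr2 ran over 0.913 to 3.76 FPKM (median 1.76) in striatum SA and 1.16 to 16.2 FPKM (median 6.54) in striatum MA, where library 1 was highest and library 5, at 1.16 FPKM, lay among the SA values. In the follicle the ranges were separate, 17.8 to 23.8 FPKM (median 18.7) in SA and 12.6 to 17.6 FPKM (median 14.3) in MA. The interaction was -1.57 (SE 0.43, adjusted p = 0.339). For Klf10 the levels were 2.76 to 5.61 FPKM (median 3.52) in striatum SA, 3.85 to 9.95 FPKM (median 6.44) in striatum MA, 25.4 to 31.5 FPKM (median 29.8) in whisker SA and 20.1 to 26.8 FPKM (median 23.1) in whisker MA. Overlap was seen in both tissues, and the differences were 0.65 in the striatum and -0.31 in the follicle. Egr2 and Klf10 were called without library 0 of whisker SA, with adjusted p of 0.0193 and 0.0164.

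Pdpn (podoplanin, a membrane mucin) and Smim11 completed this direction. Pdpn showed differences of 0.35 in the striatum and -0.51 in the follicle, with 1.88 to 3.82 FPKM (median 2.58) in whisker SA and 1.05 to 2.79 FPKM (median 1.43) in whisker MA. Smim11 had differences of 0.29 in the striatum and -0.69 in the follicle. In whisker SA, 5 libraries of Smim11 lay at 42.9 FPKM or above while library 0 was at 18.6 FPKM, below all whisker MA libraries, and the interaction went from -0.97 (adjusted p = 0.387) to -1.21 (adjusted p = 0.00191) without that library.

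Besides Pkp2, Chtf8 and Sdf2l1, the 10 rows with the smallest p and a negative interaction held 7 genes, all up in the striatum and down in the follicle by sign. Fasn, the fatty acid synthase, ran over 14.5 to 19.2 FPKM (median 16.7) in whisker SA and 10.03 to 13.6 FPKM (median 11.4) in whisker MA without overlap, and its striatum difference was 0.10. Pnp, the purine nucleoside phosphorylase of nucleotide salvage, also had separate follicle groups, 44.3 to 64.1 FPKM (median 62.4) in SA and 35.2 to 43.2 FPKM (median 40.3) in MA, beside 65.9 to 104 FPKM (median 91.1) and 82.5 to 204 FPKM (median 123) in the striatum. Their interactions were -0.57 for Fasn and -0.99 for Pnp. Gdf11, a ligand of the transforming growth factor beta family, had differences of 0.50 in the striatum and -0.30 in the follicle, and Gpt, the cytosolic alanine aminotransferase, differences of 0.53 in the striatum and -0.44 in the follicle. Sertad3, a transcriptional co-regulator, gave differences of 0.46 in the striatum and -0.45 in the follicle. For Colgalt1, which adds galactose to collagen, and Coa5, an assembly factor of cytochrome c oxidase, the interactions were -0.51 and -0.61. The adjusted p of these 7 genes ran from 0.191 to 0.254. Without library 0 of whisker SA it ran from 0.00577 to 0.0101, and 5 of them, all but Fasn and Colgalt1, then passed the fold limit too.

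Opposite responses with the striatum down and the follicle up made up 12 of the 40 opposite rows. With Gpn3 and H1f0, the 10 rows with the smallest p and a positive interaction all had these signs. Srsf5, a serine and arginine rich splicing factor, had 85.0 to 122 FPKM (median 112) in striatum SA and 65.0 to 101 FPKM (median 87.0) in striatum MA, and 88.0 to 149.9 FPKM (median 119) in whisker SA and 128 to 187 FPKM (median 159) in whisker MA. Its groups overlapped in both tissues, and in the follicle the overlap came from SA library 0 alone. The interaction was 0.79 (SE 0.19, adjusted p = 0.236), and 0.87 without that library. Pspc1, a core protein of nuclear paraspeckles, had separate follicle groups at 5.44 to 8.02 FPKM (median 6.08) in SA and 8.17 to 12.5 FPKM (median 9.60) in MA, and -0.16 in the striatum. Rbmx, an RNA-binding protein with many processed copies in mammalian genomes that could share its reads, had differences of -0.28 in the striatum and 0.25 in the follicle.

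Gpcpd1, which splits glycerophosphocholine, showed differences of -0.29 in the striatum and 0.63 in the follicle, with 4.87 to 10.7 FPKM (median 6.62) in whisker SA and 8.55 to 17.2 FPKM (median 9.22) in whisker MA. Arse, an arylsulfatase, showed differences of -0.29 in the striatum and 0.47 in the follicle. Gnl2, a nucleolar GTPase of ribosome assembly, and Pex3, which seeds peroxisomal membranes, had interactions of 0.54 and 0.46. Eml2, a microtubule-associated protein, had 0.79, of which 0.62 was in the follicle. The adjusted p of these 5 genes and of Srsf5, Pspc1 and Rbmx ran from 0.221 to 0.339. Without library 0 of whisker SA it ran from 0.00856 to 0.0202, and Srsf5, Pspc1, Gpcpd1, Arse and Eml2 then passed the fold limit too.

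**Figure D2:**
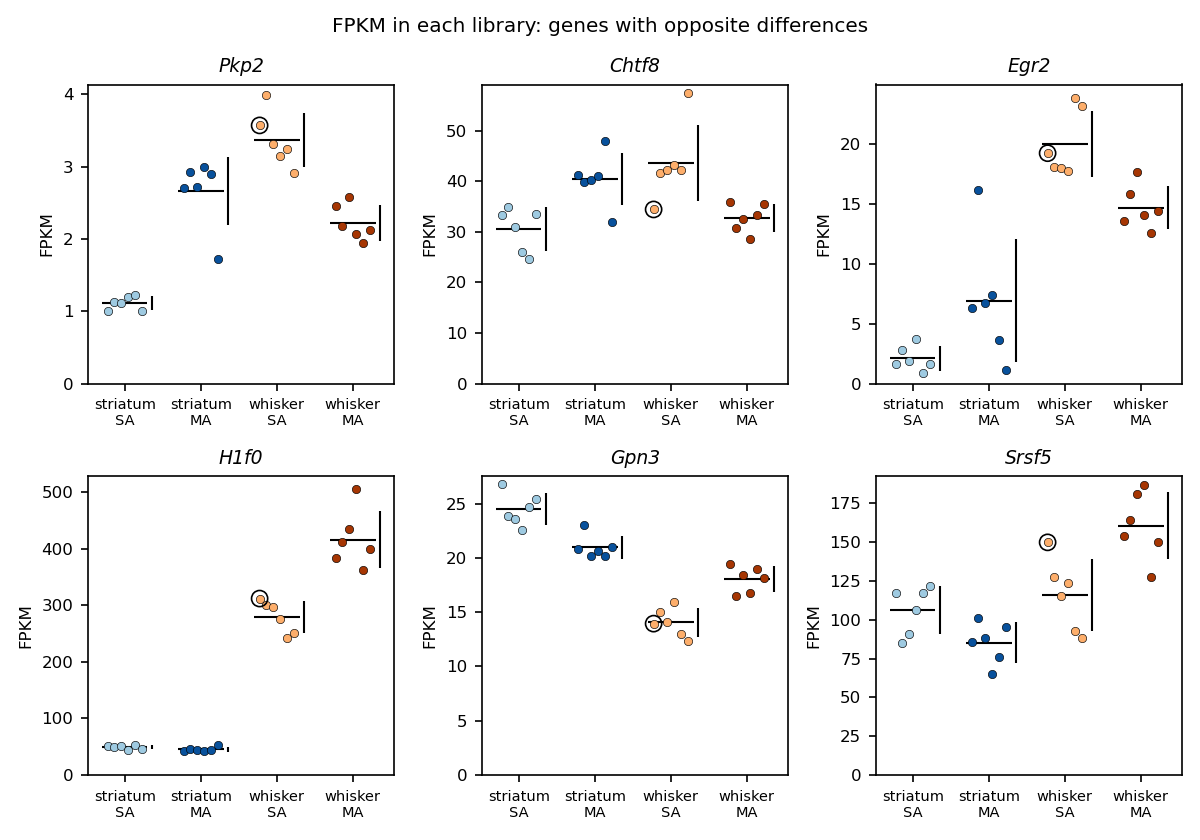
FPKM of Pkp2, Chtf8, Egr2, H1f0, Gpn3 and Srsf5 in each of the 24 libraries (points), by tissue and treatment; the horizontal line is the group mean, the vertical line beside it the mean plus and minus 1 SD (n = 6), and the circled point is library 0 of whisker SA. In the upper row the MA group mean is the higher in the striatum and the lower in the follicle, and in the lower row the reverse holds. The striatum groups overlap for every gene shown except Pkp2.

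Up in both tissues were 29 of the 49 shared rows, and the smallest larger p among them belonged to Ddit4. Ddit4, an inhibitor of the mTORC1 kinase complex induced by stress and glucocorticoids, ran over 33.0 to 57.6 FPKM (median 46.7) in striatum SA and 50.3 to 104 FPKM (median 73.1) in striatum MA. In the follicle its levels were 55.4 to 79.0 FPKM (median 62.1) in SA and 81.5 to 153 FPKM (median 96.0) in MA. The follicle groups did not overlap, while in the striatum MA libraries 1 and 5 lay among the SA values. The differences were nearly equal, 0.65 in the striatum and 0.62 in the follicle, with an interaction of -0.02 (SE 0.26) that took either sign under other settings. The average of both tissues was 0.64 (adjusted p = 0.105 in limma).

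Per1, a repressor of the circadian clock that also responds to glucocorticoids, had 11.3 to 18.002 FPKM (median 13.3) in striatum SA, 10.2 to 33.7 FPKM (median 24.3) in striatum MA, 1.35 to 7.94 FPKM (median 3.90) in whisker SA and 6.43 to 15.7 FPKM (median 6.87) in whisker MA. Overlap was seen in both tissues. Its interaction of 0.32 had an SE of 0.40, so its 2 differences, 0.61 in the striatum and 0.93 in the follicle, were not told apart. Htra1, a secreted serine protease, ran over 53.0 to 96.0 FPKM (median 69.0) in striatum SA and 81.0 to 174 FPKM (median 109) in striatum MA, and over 87.4 to 114 FPKM (median 107) and 104 to 160.1 FPKM (median 135) in the follicle. Its differences were 0.65 in the striatum and 0.36 in the follicle.

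Idh2, the mitochondrial isocitrate dehydrogenase, had differences of 0.37 in the striatum and 0.55 in the follicle. Pak4, a kinase of the cytoskeleton, and Ptpn6, a phosphatase of blood and microglial cells, had 0.28 and 0.36 as the average of both tissues. Klf2, a Kruppel-like factor of endothelium and immune cells chosen here after its values were seen, had differences of 0.80 in the striatum and 0.78 in the follicle, with 4.50 to 13.2 FPKM (median 5.27) in striatum SA and 6.94 to 22.3 FPKM (median 8.41) in striatum MA. In the follicle its values were 0.431 to 2.22 FPKM (median 1.79) in SA and 0.943 to 4.75 FPKM (median 3.29) in MA.

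Down in both tissues were 20 of the 49 shared rows, of which 4, Luc7l3, Ogt, Srsf11 and Tra2b, belonged to a list of splicing and nuclear-retained transcripts. That list holds 24 of the 8212 rows tested. It was chosen with earlier results of these data known, so the overlap is not independent evidence. Luc7l3, a protein associated with the U1 small nuclear ribonucleoprotein, was one of the 2 rows that passed for the average of both tissues (0.0244% of rows, beside 0.0365% by the adjusted p alone and 869 rows, or 10.6%, at an unadjusted p under 0.05), at -0.63 (adjusted p = 0.0481 in limma). It ran over 14.8 to 27.5 FPKM (median 22.3) in striatum SA and 12.4 to 18.7 FPKM (median 15.4) in striatum MA. Follicle values were 8.25 to 13.5 FPKM (median 13.2) in SA and 4.24 to 9.02 FPKM (median 6.23) in MA. Here 5 of the 6 whisker SA libraries lay above all MA libraries, and library 0, at 8.25 FPKM, lay within the MA range. The interaction was -0.39 (SE 0.23, adjusted p = 0.453). The average call was lost in 19 of the 24 fits without 1 library, with adjusted p up to 0.129, and was 0.00494 without library 0 of whisker SA.

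Ogt, the enzyme that attaches N-acetylglucosamine to nuclear and cytosolic proteins, passed the adjusted p of the average (0.0427) at -0.48, under the 1.5-fold limit. That p was lost in 17 of the 24 fits without 1 library (up to 0.118), and it was 0.0509 without the trend and 0.0982 with a spread for each tissue. Its groups did not overlap in the follicle, with 6.13 to 9.55 FPKM (median 7.79) in SA and 3.91 to 5.30 FPKM (median 4.66) in MA. The striatum values were 38.1 to 54.1 FPKM (median 41.0) in SA and 26.9 to 44.5 FPKM (median 34.5) in MA, and only MA library 1, at 44.5 FPKM, lay within the SA range. Rsrp1, an arginine and serine rich protein, had differences of -0.10 in the striatum and -0.85 in the follicle, so its average of -0.48 came mostly from the follicle, and its interaction was -0.75 (adjusted p = 0.33). Zfp386, a zinc finger protein with the smallest larger p of the rows down in both, ran over 4.66 to 12.2 FPKM (median 10.02) in whisker SA and 3.66 to 6.21 FPKM (median 5.33) in whisker MA. In the striatum its values were 5.84 to 10.1 FPKM (median 9.37) in SA and 4.50 to 7.29 FPKM (median 6.20) in MA, and its average was -0.57 (adjusted p = 0.142). The zinc finger genes Zfp68 and Zmym6 had averages of -0.26 and -0.30. Fyttd1, an adaptor of messenger RNA export, had differences of -0.36 in the striatum and -0.30 in the follicle.

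The other row that passed for the average joins 4 hair keratin genes (Krt31,Krt33a,Krt33b,Krt34). In the striatum this row ran over 0.272 to 17.7 FPKM in SA and 0.235 to 2.13 FPKM in MA, with overlap. It was listed at 0 in all 6 whisker MA libraries and in whisker SA library 0, and at 10772.5 to 41216.2 FPKM in the other 5 whisker SA libraries. A value of 0 for abundant follicle keratins can be a failed estimate, so no fold is given. Its interaction had an adjusted p of 0.0757 in limma.

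**Figure D3:**
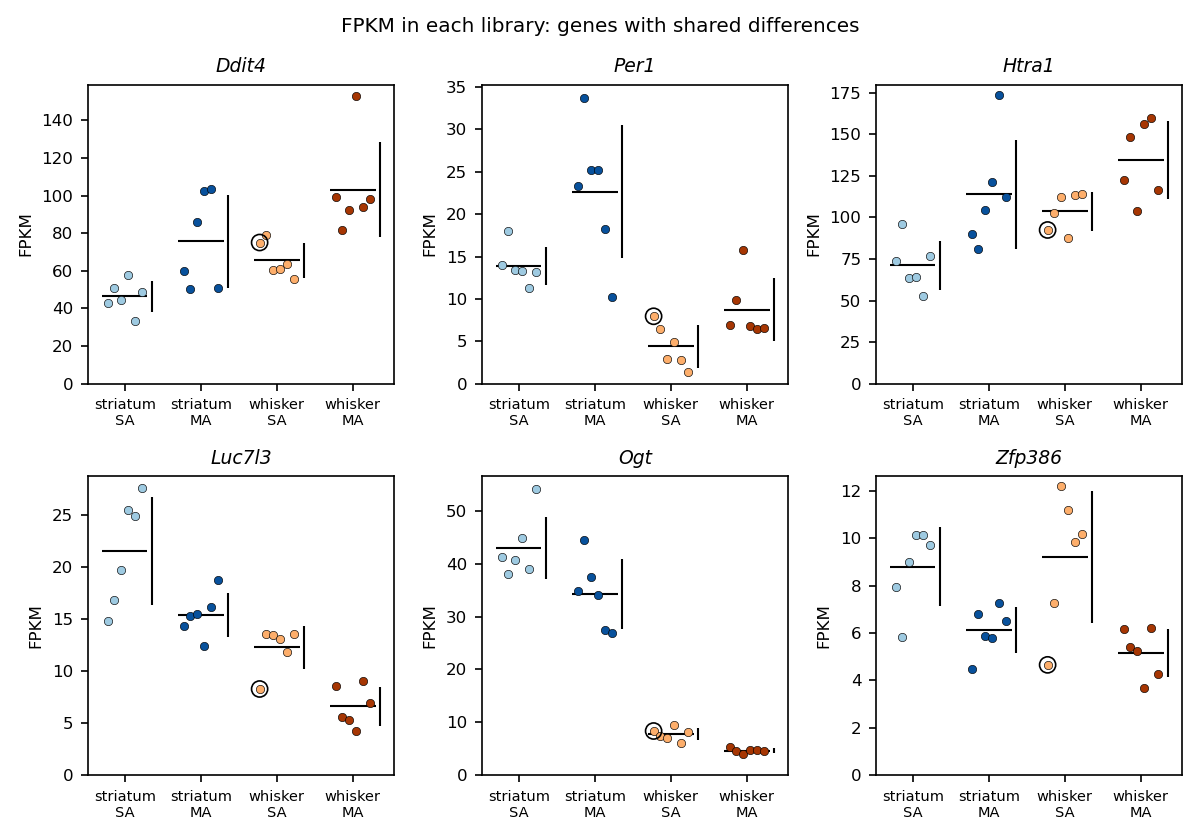
FPKM of Ddit4, Per1, Htra1, Luc7l3, Ogt and Zfp386 in each of the 24 libraries (points), by tissue and treatment; the horizontal line is the group mean, the vertical line the mean plus and minus 1 SD (n = 6), and the circle marks library 0 of whisker SA. MA means lie above SA means in both tissues in the upper row and below them in the lower row.

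The splicing transcripts were described as a list of 24 rows, SR proteins and transcripts known to be held in the nucleus. The list was chosen with earlier results of these data known, so its shared direction is not independent evidence. In both tissues the median difference was -0.20, beside medians of 0.00 in the striatum and -0.01 in the follicle over all rows tested. Of the 24, 17 were down in both tissues, beside 23.9% of all rows, and the median interaction was -0.02, beside -0.02 over all rows. The level of the list, as the median of its rows about the tissue mean, was 0.01 to 0.22 in whisker SA and -0.22 to -0.03 in whisker MA without overlap. In the striatum it was -0.08 to 0.24 in SA and -0.18 to 0.01 in MA, with overlap. At an unadjusted p under 0.05, 3 of the 24 had a lower response in the follicle (Rsrp1, Tra2b and Srsf3) and 2 a higher one (Srsf5 and Pnisr), beside 7.67% and 4.82% of all rows. Pnisr, a nuclear speckle protein, had differences of -0.59 in the striatum and 0.01 in the follicle, and Tra2b, a splicing activator, had differences of -0.14 in the striatum and -0.81 in the follicle.

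The genes that the study singled out were of 3 kinds here. Per1, Ddit4 and Tagln were singled out in both tissues on these samples, so a shared direction is not independent evidence. Tagln, an actin-binding protein of smooth muscle, had differences of 0.29 in the striatum and 0.49 in the follicle, with an SE of 0.68 for the interaction of 0.21, which was 0.67 without library 3 of striatum MA. In striatum MA its highest value, 91.1 FPKM in library 3, lay far from the group's median of 11.97 FPKM, which was below the striatum SA median of 14.4 FPKM. Only 2 of the 6 striatum MA libraries lay above that SA median, so the direction of Tagln in the striatum rests on library 3.

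Arc, Junb and Fosl2, activity-regulated genes singled out in the striatum, had negative interactions. Arc, which shapes synapses after activity, stood at 11.0 to 47.0 FPKM (median 27.0) in striatum SA and 18.7 to 103 FPKM (median 64.7) in striatum MA, and at 0.740 to 8.44 FPKM (median 2.04) and 1.32 to 5.82 FPKM (median 2.56) in the follicle. Its interaction was -1.15 (SE 0.56, adjusted p = 0.405). Junb, a subunit of the AP-1 transcription factor, had differences of 0.95 in the striatum and 0.19 in the follicle. Fosl2, another AP-1 subunit, was up in both, 1.64 in the striatum and 0.99 in the follicle, an interaction of -0.65 (SE 0.66). Fosb, Slc17a6 and Slc17a7 averaged under 1 FPKM in the follicle and were not tested, and Gria2 was not analysed here.

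App, Uchl1 and Ap2a1, singled out in the follicle, had positive interactions. App, the amyloid precursor protein, ran over 95.6 to 244 FPKM (median 137) in whisker SA and 174 to 348 FPKM (median 202) in whisker MA. Striatum values were 408 to 568 FPKM (median 464) in SA and 282 to 598 FPKM (median 463) in MA. The groups overlapped in both tissues. The interaction of App was 0.86 (SE 0.31, adjusted p = 0.387). Uchl1, a ubiquitin hydrolase abundant in neurons, had 1.31 (SE 0.66), and Ap2a1, a subunit of the clathrin adaptor AP-2, had 0.75 (SE 0.31). None of these 9 genes passed the test of the interaction with all libraries. Without library 0 of whisker SA, App (1.02, adjusted p = 0.019) and Ap2a1 (0.95, adjusted p = 0.0164) passed, and the other 7 did not.

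Gene lists of pathways and cell types were described by their medians, with no test of the list. Of 79 cytosolic ribosomal protein genes, 58 were tested, and 57 had an interaction below 0, beside 52.5% of all rows. The median difference was 0.26 in the striatum and -0.49 in the follicle, a median interaction of -0.75. At an unadjusted p under 0.05, 36 of the 58 were lower in the follicle, beside 7.67% of all rows, and 52 were up in the striatum and down in the follicle, beside 28.7%.

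Rps21, a protein of the small ribosomal subunit, had the smallest p of the list. It ran over 0.377 to 4.38 FPKM (median 2.46) in striatum SA, 2.67 to 8.16 FPKM (median 4.40) in striatum MA, 16.5 to 53.4 FPKM (median 34.2) in whisker SA and 9.11 to 26.0 FPKM (median 19.4) in whisker MA, with an interaction of -1.66 (SE 0.49, adjusted p = 0.387). Rpl13a, of the large subunit, had differences of 0.47 in the striatum and -0.87 in the follicle. Rplp1, a protein of the ribosomal stalk, had differences of 0.37 in the striatum and -0.79 in the follicle, and its follicle groups overlapped through SA library 0 alone. Ribosomal protein genes have many near-identical processed copies, among which reads can be split, so the level of a single member is uncertain.

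Of 71 rows for subunits of oxidative phosphorylation, the respiratory chain and ATP synthase, 63 had an interaction below 0, beside 52.5% of all rows, and 22 were lower in the follicle at an unadjusted p under 0.05, beside 7.67%. The median difference was 0.10 in the striatum and -0.37 in the follicle. Atp5e, a subunit of ATP synthase, had differences of 0.30 in the striatum and -0.94 in the follicle, and Cox7c, of cytochrome c oxidase, differences of 0.28 in the striatum and -0.25 in the follicle. The level of the oxidative phosphorylation list was 0.09 to 0.69 in whisker SA libraries 1 to 5, -0.77 in library 0 and -0.64 to 0.24 in whisker MA. The 64 mitochondrial ribosomal protein rows had a median of 0.00 in the striatum and -0.32 in the follicle, so their interaction of -0.33 lay on the follicle side.

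These lists moved with single libraries and with the scaling. The level of the ribosomal list was 0.07 to 0.91 in whisker SA libraries 1 to 5, -0.95 in library 0 and -0.72 to 0.22 in whisker MA. In the striatum it was -0.29 to 0.01 in SA and -0.35 to 0.67 in MA. Without library 0 of whisker SA the median interaction was -0.99 for the ribosomal list and -0.68 for oxidative phosphorylation. With quantile normalization it was -0.33 and -0.14, of the same sign but closer to 0.

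**Figure D4:**
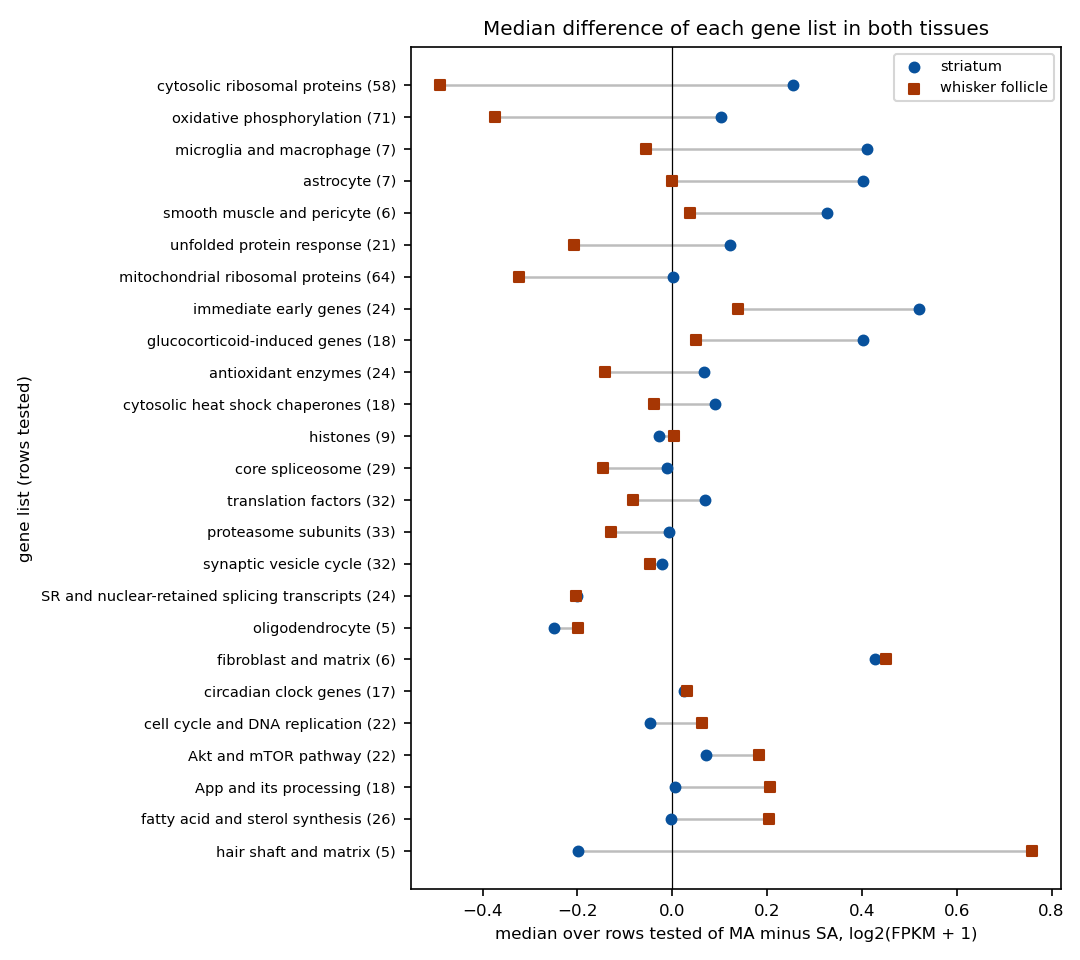
Median over the rows tested of MA minus SA, in log2(FPKM + 1), for the 25 gene lists with at least 5 rows tested (number in brackets), in the striatum (circles) and the whisker follicle (squares), ordered by the median interaction. The ribosomal list is at the top, with 0.26 in the striatum and -0.49 in the follicle, and the splicing transcripts have both marks at -0.20.

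The unfolded protein response restores folding in the endoplasmic reticulum: sensors such as Atf6 and the Xbp1 pathway induce chaperones. Of 24 genes of this list, 21 were tested, 18 had an interaction below 0 and 10 were lower in the follicle at an unadjusted p under 0.05, with 1 (Edem1) higher, beside 52.5%, 7.67% and 4.82% of all rows. The median difference was 0.12 in the striatum and -0.21 in the follicle. The smallest p belonged to Sdf2l1. Sdf2l1, part of a chaperone complex, stood at 10.8 to 17.3 FPKM (median 13.8) in striatum SA, 14.6 to 23.4 FPKM (median 16.5) in striatum MA, 13.4 to 33.9 FPKM (median 26.8) in whisker SA and 10.1 to 18.03 FPKM (median 14.5) in whisker MA, an interaction of -1.05 (SE 0.25, adjusted p = 0.236). In the follicle its groups overlapped through SA library 0, without which the interaction was -1.22 (adjusted p = 0.00577).

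Creld2, a folding factor that is secreted on stress, had differences of 0.14 in the striatum and -0.68 in the follicle. Xbp1, the transcription factor, had differences of 0.12 in the striatum and -0.55 in the follicle. Calr, a chaperone of glycoproteins, had differences of 0.27 in the striatum and -0.36 in the follicle. Hspa5, the main chaperone of the endoplasmic reticulum, had differences of 0.35 in the striatum and -0.25 in the follicle, an interaction of -0.60. The sensor Atf6 had a positive interaction of 0.53 and Edem1, which sends misfolded proteins to degradation, had 0.41. The level of the list was 0.06 to 0.27 in whisker SA libraries 1 to 5, -0.17 in library 0 and -0.30 to -0.05 in whisker MA. The striatum groups overlapped, at -0.17 to 0.05 in SA and -0.12 to 0.22 in MA. The median interaction of the list was -0.38 without library 0 and -0.23 with quantile normalization.

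The endoplasmic reticulum stress element, CCAAT and CCACG with any 9 bases between them, is the sequence bound by NF-Y and ATF6 or XBP1 at such genes. It was searched on both strands in the 250 bases before the RefSeq start of each gene (build GRCr8). It stood in 21 of 27457 promoters (0.0765%), in 14 of the 6342 tested rows with a promoter (0.221%), and in 7 of the 18 tested genes of the list with a promoter, Hspa5, Hsp90b1, Xbp1, Creld2, Dnajc3, Calr and Canx. The 7 had interactions below 0, beside 52.5% of all rows tested, with a median of -0.60. At an unadjusted p under 0.05, 5 of them were lower in the follicle, beside 7.67% of all rows. In the 7 tested rows outside the list that hold the element the median was 0.07 and 2 were below 0, Hnrnpa3 and Derl3. Derl3 had the lowest interaction of the 14 rows, -0.94 (SE 0.36, adjusted p = 0.387 in limma). The contrast thus depends on which genes the list holds. In the 11 genes of the list without the element the median was -0.05, 9 were below 0 and 3 were lower at an unadjusted p under 0.05. The CRE (TGACGTCA) and the E-box (CACGTG) were searched in the same windows. They stood in 0 and 3 of the 18 genes of the list, beside 3.17% and 8.72% of the tested rows with a promoter. The match to the stress element is a description of these windows and not evidence of binding. The promoters of the 4 matching genes with the smallest p of the interaction are shown, 5′ to 3′ on the gene's strand, with the outer blocks of the element or of its reverse complement in capitals.
Creld2 (chr7:121789134-121789383, + strand): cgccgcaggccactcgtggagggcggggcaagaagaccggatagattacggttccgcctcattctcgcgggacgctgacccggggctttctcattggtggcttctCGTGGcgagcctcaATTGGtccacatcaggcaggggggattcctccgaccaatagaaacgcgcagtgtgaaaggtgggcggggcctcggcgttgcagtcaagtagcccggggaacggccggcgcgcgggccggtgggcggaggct
Xbp1 (chr14:84604373-84604622, + strand): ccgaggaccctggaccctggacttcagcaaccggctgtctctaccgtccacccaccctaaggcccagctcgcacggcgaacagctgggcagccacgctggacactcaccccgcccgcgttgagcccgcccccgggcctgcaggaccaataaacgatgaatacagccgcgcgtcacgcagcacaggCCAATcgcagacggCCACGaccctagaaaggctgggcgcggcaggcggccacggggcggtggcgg
Calr (chr19:40213117-40213366, + strand): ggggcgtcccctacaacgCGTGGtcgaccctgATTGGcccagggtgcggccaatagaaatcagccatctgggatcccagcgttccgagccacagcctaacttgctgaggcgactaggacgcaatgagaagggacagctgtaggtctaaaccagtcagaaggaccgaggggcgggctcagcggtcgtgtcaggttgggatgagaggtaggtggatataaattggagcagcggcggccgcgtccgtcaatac
Hspa5 (chr3:38452766-38453015, + strand): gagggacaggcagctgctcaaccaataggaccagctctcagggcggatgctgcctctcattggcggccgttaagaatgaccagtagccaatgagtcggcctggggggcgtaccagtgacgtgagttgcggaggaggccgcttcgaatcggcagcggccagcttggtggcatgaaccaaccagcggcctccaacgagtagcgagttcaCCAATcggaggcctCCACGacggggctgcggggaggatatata
In Creld2 and Calr the match is on the opposite strand, 127 to 145 and 214 to 232 bases before the start. In Xbp1 and Hspa5 it is on the gene's strand, 47 to 65 and 25 to 43 bases before the start.

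**Figure D5:**
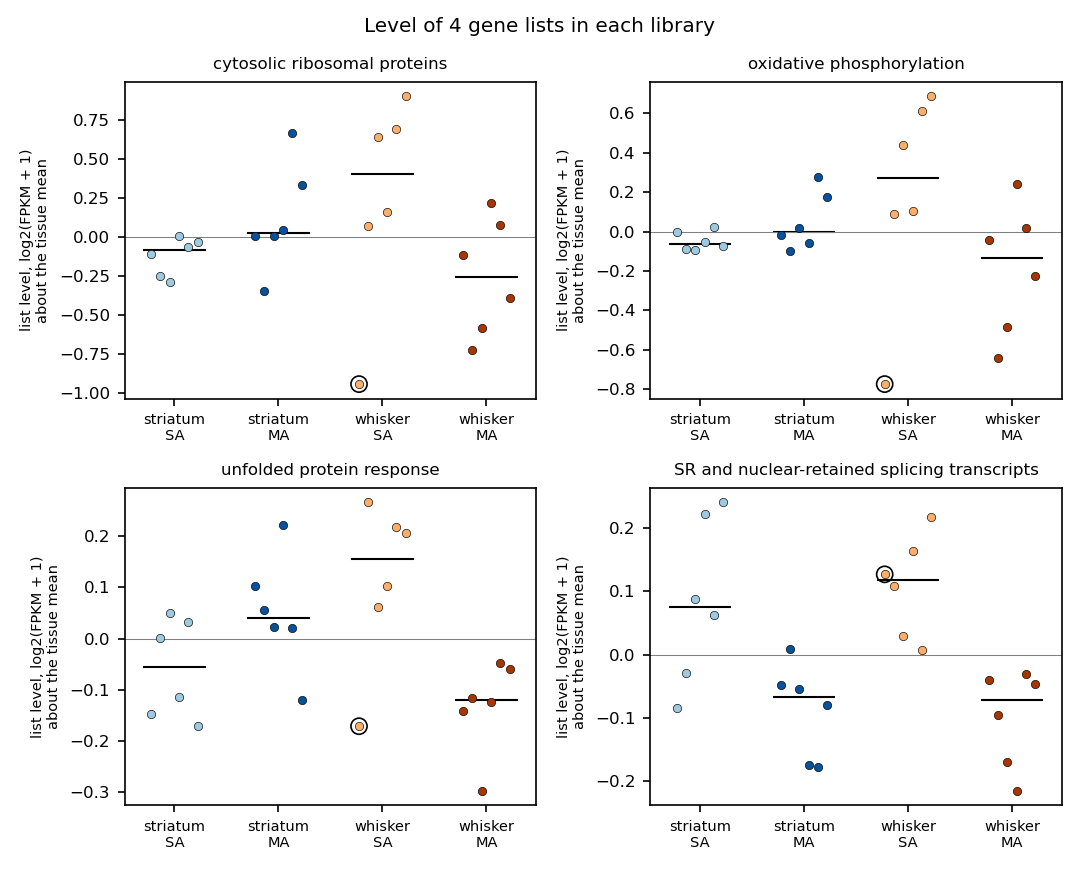
Level of 4 gene lists in each library, as the median over the list's rows of log2(FPKM + 1) about the tissue mean (y axis), by tissue and treatment (points; the horizontal line is the group median); the circle marks library 0 of whisker SA. In the ribosomal, oxidative phosphorylation and unfolded protein response panels library 0 lies at -0.95, -0.77 and -0.17, below the other 5 whisker SA libraries, and in the splicing panel it lies within its group.

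Immediate early genes, which cells transcribe within minutes of a stimulus, were up in both tissues by median, more so in the striatum. Of 24 tested, 17 were up in both and 7 were up in the striatum and down in the follicle, beside 22.6% and 28.7% of all rows, and the median was 0.52 in the striatum and 0.14 in the follicle. At an unadjusted p under 0.05, 7 had a lower response in the follicle, beside 7.67% of all rows, and none a higher one. Beside Klf10, Egr2 and Junb these were Btg2, an antiproliferative factor, with differences of 0.48 in the striatum and -0.19 in the follicle, Nr4a1, an orphan nuclear receptor, with differences of 1.58 in the striatum and 0.38 in the follicle, Dusp5, a phosphatase of ERK, with differences of 0.70 in the striatum and 0.09 in the follicle, and Ier5. The level of the list was -0.67 to -0.03 in striatum SA and -0.33 to 0.67 in striatum MA, and -0.37 to 0.22 in whisker SA and -0.14 to 0.25 in whisker MA, with overlap in both tissues. Fos, Klf4 and Klf2 had interactions of 0.20, -0.11 and -0.02, and the last 2 were among the 49 shared rows.

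Glucocorticoid-induced genes gave a mixed pattern. Of 18 tested, 8 were up in both tissues, Per1, Ddit4 and Sgk1 among them, and 8 were up in the striatum and down in the follicle, beside 22.6% and 28.7% of all rows. In striatum SA the level of the list was -0.40 to -0.01. In striatum MA it was -0.23 to 0.84, with library 3 at 0.84 and the others at most at 0.17. In the follicle it was -0.24 to 0.20 in SA and -0.29 to 0.42 in MA, and the groups overlapped in both tissues. Cebpb, a transcription factor of acute phase and epidermal genes, ran over 3.88 to 7.41 FPKM (median 5.93) in striatum SA, 4.72 to 11.9 FPKM (median 10.2) in striatum MA, 93.9 to 417 FPKM (median 252) in whisker SA and 93.3 to 192 FPKM (median 155) in whisker MA. Its interaction of -1.27 (SE 0.38) had an adjusted p of 0.387. Cebpd and the metallothionein Mt2A had interactions of -0.90 and -1.25. Fkbp5 and Tsc22d3, classic targets of the glucocorticoid receptor, had -0.16 and -0.02.

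Lists with a positive median interaction were fewer. Of 26 fatty acid and sterol synthesis rows, 18 had an interaction above 0, with a median of 0.00 in the striatum and 0.20 in the follicle, although Fasn itself was negative. App and its processing genes had a median interaction of 0.18 over 18 rows, and Psen2, a catalytic subunit of gamma-secretase, had differences of -0.14 in the striatum and 0.59 in the follicle.

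The list of cytosolic heat shock chaperones, which also holds the mitochondrial Hspe1 and Hspd1, had a median interaction of -0.20 over 18 rows. At an unadjusted p under 0.05, 5 of them were lower in the follicle, beside 7.67% of all rows: Chordc1, a co-chaperone of Hsp90, the mitochondrial chaperonins Hspe1 and Hspd1, Dnaja1, a co-chaperone of Hsp70, and the small heat shock protein Hspb1. Chordc1 had differences of 0.09 in the striatum and -0.50 in the follicle, and Hspe1 had differences of 0.26 in the striatum and -0.46 in the follicle. Of 17 circadian clock genes none passed that threshold, and 8 were up in both tissues, beside 22.6% of all rows. Bhlhe40, a clock-linked repressor, had differences of 0.15 in the striatum and 0.70 in the follicle, and Per3, a clock repressor, differences of -0.37 in the striatum and 0.22 in the follicle. In the Akt and mTOR pathway, where 14 of 22 rows were up in both tissues (22.6% of all rows were), Eif4ebp1, the repressor of cap-dependent translation, had differences of 0.53 in the striatum and -0.36 in the follicle, and Tsc2, an inhibitor of mTORC1, differences of 0.33 in the striatum and -0.11 in the follicle. Akt1, the kinase itself, had differences of 0.20 in the striatum and 1.11 in the follicle, an interaction with an SE of 0.50.

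The 6 tested fibroblast and matrix markers, Col1a1, Dcn, Bgn, Sparc, Fbln1 and Col6a2, were up in both tissues by sign, beside 22.6% of all rows. Their medians were 0.43 in the striatum and 0.45 in the follicle. The level of this list was -0.51 to -0.07 (median -0.16) in striatum SA. In striatum MA it was -0.50 to 1.43 (median -0.02), with libraries 3 and 4 highest, at 1.43 and 0.50. Follicle levels were -0.56 to 0.22 in SA and -0.44 to 0.61 in MA, so the groups overlapped in both tissues. The interaction of Col1a1, a chain of type I collagen, was -0.31 and that of Dcn, the proteoglycan decorin, 0.29. Of the hair shaft and matrix markers 5 were tested, with a median interaction of 1.11. Bmp4, a signal of the dermal papilla, had differences of -0.80 in the striatum and 1.03 in the follicle, and Krt71, a keratin of the inner root sheath, differences of 0.33 in the striatum and -0.45 in the follicle. At a mean of at least 5 FPKM in both tissues only Krt71 of that list was left, so the median of -0.79 was the interaction of Krt71 alone.

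Astrocyte and microglia markers moved with the negative interactions, while of the oligodendrocyte markers 2 of the 5 tested had an interaction below 0, with a median interaction of 0.02 and a median difference of -0.25 in the striatum. All 7 tested astrocyte markers had an interaction below 0, and so did the 7 tested microglia and macrophage markers, beside 52.5% of all rows. The median difference of the astrocyte markers was 0.40 in the striatum and 0.00 in the follicle. For the microglia and macrophage markers it was 0.41 and -0.06. Aldh1l1, an astrocyte enzyme of folate metabolism, had differences of 0.40 in the striatum and -0.30 in the follicle, and C1qa, a complement component made by microglia, had differences of 0.54 in the striatum and -0.51 in the follicle. The 10 astrocyte markers summed to 3262 to 4023 FPKM in striatum SA and 3004 to 6769 FPKM in striatum MA, and the 15 microglia and macrophage markers to 329 to 519 FPKM and 287 to 817 FPKM. In bulk tissue, more cells of a type and more RNA per cell cannot be told apart. At a mean of at least 5 FPKM in both tissues the median interaction of the microglia and macrophage list was next to 0. That filter only drops rows, so the change came from which of the 7 markers stayed, and their number is not given here. The 2 tested erythrocyte markers, Hbb and Hbb-b1, had a median interaction of -2.41 (adjusted p of 0.407 and 0.414 in limma), and the 5 erythrocyte markers in the table summed to 3.80 to 189 FPKM in whisker SA and 3.89 to 181 FPKM in whisker MA. The part of cell composition in the interactions above was not tested.

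The number of calls turned on library 0 of whisker SA. Without it, 1193 of 8139 rows (14.7%) passed for the interaction, 533 higher (6.55%) and 660 lower (8.11%) in the follicle. These held Pkp2 and H1f0, and all 1193 had the same sign with the library included, where 583 of them had an unadjusted p under 0.05. Leaving out any other library gave 1 to 4 calls. The average passed in 217 rows (2.67%), 199 up and 18 down. Of the 40 opposite rows 38 were among the 175 (2.15%) found without the library, which is 95% of the first set and 21.7% of the second, and of the 49 shared rows 43 were among 128 (1.57%), which is 87.8% and 33.6%. Called lower in the follicle were then 47 of the 58 ribosomal rows, 42 of the 71 oxidative phosphorylation rows and 8 of the 21 unfolded protein response rows, beside 8.11% of all rows.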

How the data were processed

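RNA of the striatum and the whisker follicle of MA and SA self-administered rats was sequenced as polyadenylated, unstranded libraries. The authors deposited FPKM per gene for all 24 libraries, made per the labels with bcl2fastq, STAR 2.6.0c and Cufflinks 2.2.1 on the rat build rn6, while the study's methods name another aligner. FPKM keeps no read depth, so the precision of a single value is unknown and only the spread between libraries is used. Without strand, reads of overlapping and antisense genes cannot be told apart.

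Values were taken as log2(FPKM + 1), so fold changes of low genes are understated. Rows with a mean of at least 1 FPKM in both tissues were fitted with limma 3.58.1 in R 4.3.3 (4 group means, intensity trend). A call needed a Benjamini-Hochberg adjusted p under 0.05 over all rows tested and a difference of at least 1.5-fold (0.585 on the log2 scale). The average is the mean of both tissues' differences under the same rule. For both tissues at once, the larger p of separate fits within each tissue was used. All tests were two-sided. The fit was also run on simulated data, drawn independently for each row with the same spread in all libraries of a tissue. That run held no outlying library, so it does not cover the case of library 0 of whisker SA.

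Named were the 10 rows with the smallest p of the interaction in each direction, the 6 with the smallest larger p in each opposite and shared direction, the 5 with the smallest p of the average, the genes the study singled out and up to 4 members of each list by p. Rows joining several symbols were passed over, and other genes named were chosen after their values were seen. Members and gene lists were chosen with earlier results of these data known. Per the study, the same 6 SA and 6 MA rats gave both tissues, and the fit treats the libraries of the 2 tissues as independent. Alternatives were the pseudocount, the filter, the scaling, the trend, library weights, a spread for each tissue, a block on the column index and leaving out libraries. Promoter sequences are from RefSeq. A few genes that these rules name are not reported here.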

Additional observations from a re-analysis of the deposited data

Results flagged for a closer look

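In 176 groups of 6 libraries (44 named genes in 4 groups), 9 held a library far from the other 5 by Dixon's test, which chance alone does in about 1 in 20 groups. In striatum MA these were Gpn3 at 23.1 FPKM in library 1, above the other libraries, Pkp2 at 1.73 FPKM in library 5, below them, Tagln at 91.1 FPKM in library 3, above, and Arc at 18.7 FPKM in library 5, below. In whisker SA they were Smim11 at 18.6 FPKM and Luc7l3 at 8.25 FPKM, both in library 0 and both below the rest, Zfp68 at 10.001 FPKM in library 3 and Zmym6 at 1.00 FPKM in library 4. In whisker MA it was Ddit4 at 153 FPKM in library 3, above the rest. Of 28 groups of list levels 1 stood out, the glucocorticoid-induced genes in striatum MA library 3, at 0.84 above the tissue mean on the log2 scale.

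The MA effect differed between the tissues by the test of the interaction itself for H1f0 (0.68) and for Pkp2 (-1.22).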

How the results depend on the processing

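The interaction of Pkp2 was called under each alternative that tested it (at a mean of at least 5 FPKM it was not tested), while the number of calls moved with the setting, and the cause was not tested. The interaction had 2 calls as reported. It had 496 at an unadjusted p with the fold limit, 1 at a mean of at least 5 FPKM, 1 with quantile normalization and 1245 with weighted libraries. The average had 2 calls as reported. It had 63 at an unadjusted p with the fold limit, 0 with a pseudocount of 0.1 or 0.5, 0 without the filter, 0 with a common median, 0 without the trend, 1 at a mean of at least 5 FPKM, 1 with a spread for each tissue and 182 with weighted libraries. Rows with both unadjusted p under 0.05 were 297 opposite and 207 shared with weighted libraries (40 and 49 as reported), and 32 shared at a mean of at least 5 FPKM. Leaving out 1 library in turn gave 1 to 1193 interaction calls, 0 to 217 average calls, 20 to 175 opposite and 28 to 128 shared rows. The highest of each came without library 0 of whisker SA. Without any other library they were 1 to 4, 0 to 4, 20 to 70 and 28 to 77.

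Further alternatives were chosen after seeing the data. Without striatum MA libraries 3 and 4, which had the highest erythrocyte levels, there were 1 interaction call, 0 average calls, 20 opposite and 23 shared rows. Without library 0 of whisker SA and with quantile normalization the counts were 796, 174, 123 and 153. Without library 0 and striatum MA libraries 3 and 4, the interaction had 675 calls, the average 165 and the opposite rows were 75.

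The interaction changed sign for 4 named genes near 0. Ddit4 had 0.12 with quantile normalization, 0.23 without striatum MA libraries 3 and 4, 0.23 without library 0 and with quantile normalization, 0.27 without library 0 and libraries 3 and 4, and -0.14 to 0.080 without 1 library. Fyttd1 had -0.029 with weighted libraries, -0.029 without libraries 3 and 4, -0.11 without these and library 0, and -0.020 to 0.12 without 1 library. Without 1 library in turn Zfp68 ran from -0.088 to 0.012 and Tagln from -0.040 to 0.67. The labels do not tie the column indices 0 to 5 to the rat numbers 1 to 6, so the planned replicate block by rat was not run. Across genes, the deviations of same-index libraries of the 2 tissues correlated at -0.229 to 0.294 over 12 pairs, over 0.1 in 6, and 5 of the 12 striatum libraries correlated best with their own index. A replicate block on the column index, chosen after seeing the data, gave 2 interaction calls, H1f0 and Pkp2, and 0 average calls.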
